A study of Mus musculus with 12 samples.

Results

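The early response transcription factor genes Nr4a1, Nr4a2, Nr4a3, Egr1, Egr2, Egr3, Fos, Fosb, Jun and Junb were followed through a comparison of mouse CD4 and CD8 T cells with and without linoleic acid. The members were taken by name: a probe set counted if its only annotated gene symbol was one of the 10, and each of the 10 genes had exactly 1 such probe set among the 22180 genes named on the array. All 10 also passed the filter on low values that left 14323 genes for testing. Each of 12 MoGene-2_0-st arrays (Affymetrix, 1 colour) held the total RNA of 1 sample. There were 4 groups of 3 arrays, a control and a linoleic acid group of each cell type. In all 4 groups whole spleen cells had first been kept in culture for 24 h, in the linoleic acid groups with 50 µM of this omega-6 polyunsaturated fatty acid, and the T cells were sorted afterwards, so that B cells and myeloid cells shared the culture. The labels give no strain, sex, age or genotype, and they do not say whether the arrays of a group came from separate animals or cultures. The p-values therefore rest on the spread among these samples alone, and that spread may be technical.

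The 3 families are switched on within minutes of a signal at the cell surface, without new protein synthesis. In T cells the antigen receptor drives them through the MAP kinases, which act on serum response factor and its ETS partners at CArG boxes, and through calcium, calcineurin and cyclic AMP response element (CRE) binding proteins. NR4A proteins are orphan nuclear receptors known from negative selection, tolerance and exhaustion, EGR proteins are zinc finger factors that turn on brakes such as Cblb along with activation genes, and FOS and JUN proteins pair as AP-1, which works with NFAT at cytokine genes.

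Promoter windows of 8 of the 10 genes were read from RefSeq (build GRCm38.p6), as the 250 bases before each start in the promoter set used. Egr1 and Egr3 are named only. For Nr4a1, Nr4a3, Egr2 and Fosb the windows lie within or overlap the annotated gene, so its outermost start was not read. The windows of 4 genes are shown, because Nr4a1 and Fosb are the genes whose linoleic acid differences ran in opposite directions, Egr2 held a CArG box and Jun held no CRE half-site. Capitals mark CRE half-sites (TGACG on either strand) and the CArG box, and each sequence runs 5′ to 3′ on the strand of its gene.
Nr4a1 (chr15:101266596-101266845, plus strand): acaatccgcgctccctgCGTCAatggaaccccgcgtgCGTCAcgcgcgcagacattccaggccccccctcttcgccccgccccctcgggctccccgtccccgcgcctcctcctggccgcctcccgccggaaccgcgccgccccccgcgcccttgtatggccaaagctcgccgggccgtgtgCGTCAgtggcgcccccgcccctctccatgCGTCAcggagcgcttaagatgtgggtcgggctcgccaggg
Egr2 (chr10:67537619-67537868, plus strand): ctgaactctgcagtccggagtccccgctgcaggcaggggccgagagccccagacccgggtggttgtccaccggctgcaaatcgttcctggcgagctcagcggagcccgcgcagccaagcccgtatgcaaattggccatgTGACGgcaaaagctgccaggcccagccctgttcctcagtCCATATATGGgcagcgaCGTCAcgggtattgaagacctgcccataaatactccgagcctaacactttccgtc
Fosb (chr7:19310046-19310295, minus strand): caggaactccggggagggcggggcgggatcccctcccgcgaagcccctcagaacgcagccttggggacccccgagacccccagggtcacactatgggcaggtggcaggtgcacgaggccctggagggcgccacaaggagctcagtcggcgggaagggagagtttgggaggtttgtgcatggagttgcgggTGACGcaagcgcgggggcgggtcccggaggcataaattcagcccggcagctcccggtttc
Jun (chr4:95052223-95052472, minus strand): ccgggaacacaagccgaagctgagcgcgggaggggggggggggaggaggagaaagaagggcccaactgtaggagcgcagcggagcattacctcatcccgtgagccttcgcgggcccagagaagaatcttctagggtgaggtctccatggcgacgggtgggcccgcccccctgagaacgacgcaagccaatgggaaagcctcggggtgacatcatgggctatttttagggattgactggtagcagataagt
The CRE half-site was found in 7 of the 8 genes, against 17.8% of all 32851 promoter windows of that length. Nr4a1, Nr4a2 and Nr4a3 held 4 each, Fos held 2, and Fosb and Junb 1 each. Egr2 has 5 start windows, of which 3, the printed one included, held 2 half-sites and the others 0, so counting it by gene is more generous than the share of windows. Within these windows a CArG box was found only in Egr2, in 4 of its 5 start windows, the printed one included, and in 1.47% of all windows. Bases further than 250 from a start were not searched, so the other genes may hold a CArG box there. The EGR site GCGNGGGCG was present in Nr4a1, Nr4a2 and Fosb (4.7% of all windows) and the TATA box TATAAA in Nr4a2 and Fos (12.4%). The full CRE TGACGTCA (1.55%), the AP-1 site TGANTCA (6.75%) and the NR4A monomer site AAAGGTCA (1.34%) were not found in these windows. Only exact matches to these letters were counted, which leaves out TGACATCA in the Jun window. Both strands were searched for each motif, and a full CRE would also count as half-sites. The shares over all windows were not matched for GC content, which ran from 54% (an Egr2 window) to 80% (Nr4a2) in these genes.

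The deposited values are log2 intensities, given here for arrays 1, 2 and 3 of a group in that order, and each gene is compared only with itself. Array medians lay between 4.66 and 4.80. The labels were borne out by the sort markers, with Cd4 at 10.77 to 11.19 on the CD4 arrays and at 5.12 to 6.48 on the CD8 arrays, and Cd8a at 10.98 to 11.29 on the CD8 arrays and at 5.01 to 6.82 on the CD4 arrays. RNA of other spleen cells was also measured: the mean of 13 B cell markers was 5.80 to 6.25 on the 4 arrays numbered 1 and 7.01 to 7.63 on the 8 arrays numbered 2 or 3. The mean of 12 myeloid markers was 5.04 to 5.13 and 5.42 to 5.84 on the same arrays. As a gauge of signal without expression, 95% of 1409 odorant, vomeronasal and trace amine receptor genes had means below 5.11. A mean above this gauge was found for 12 of the 13 B cell markers and 6 of the 12 myeloid markers, and the myeloid mean on the arrays numbered 1 lay at the gauge. Of the 10 early response genes 9 had a mean above the gauge. Nr4a2 lay below it on all 12 arrays, so its values are near background, and Egr3 lay above it on 11.

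**Figure D1:**
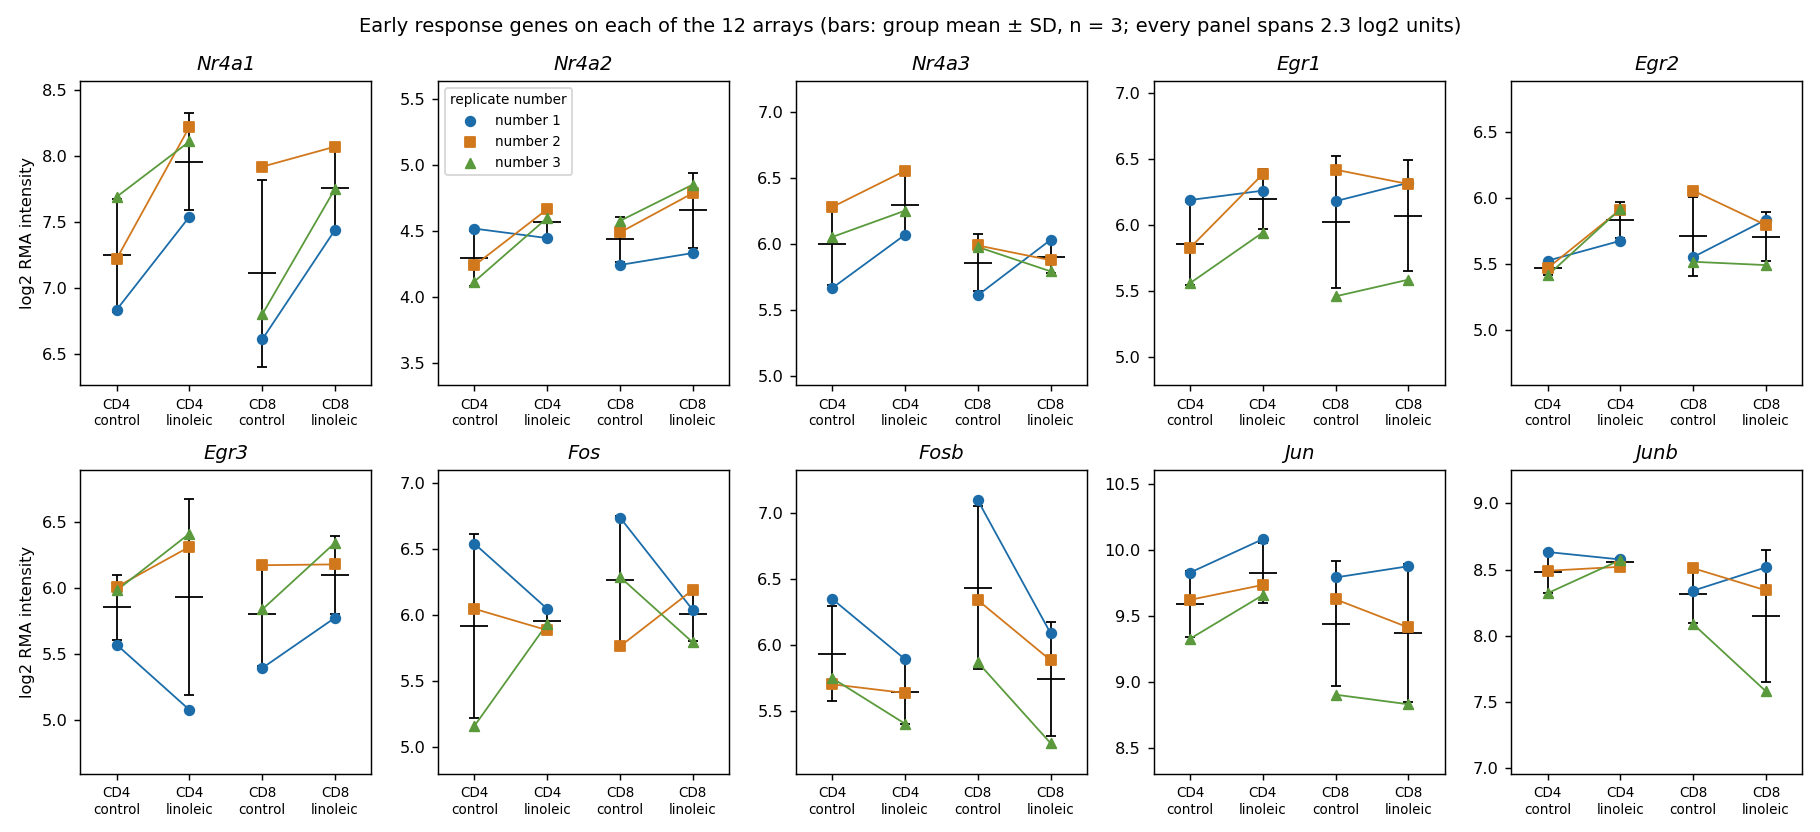
Log2 RMA intensity of the 10 genes on each of the 12 arrays, with colour and marker giving the replicate number, lines joining same-numbered control and linoleic acid arrays, and bars giving the group mean ± SD (n = 3); every panel spans the same 2.3 log2 units. All 3 lines run upwards in both cell types for Nr4a1 and downwards for Fosb, while the blue arrays numbered 1 lie lowest for Egr3 and highest for Jun in each of the 4 groups.

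With linoleic acid, Nr4a1 was higher and Fosb lower between every pair of same-numbered arrays, in CD4 and in CD8 T cells, but neither difference passed the threshold after adjustment within a cell type. None of the 10 genes did, in any of the 5 comparisons fitted (limma, Benjamini-Hochberg adjusted p under 0.05 over all genes tested). Among all 14323 genes 0% passed for linoleic acid in CD4 T cells, 0% in CD8 T cells and 0% for the difference between these effects, so that this zero is shared by the whole array.

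Nr4a1 (probe set 17315178), which encodes the receptor Nur77 and is widely used as a reporter of antigen receptor signalling, read 6.84, 7.22 and 7.69 in CD4 control cells and 7.54, 8.22 and 8.11 with linoleic acid. The groups overlapped, since the third control array lay above the first linoleic acid array. The means were 7.25 ± 0.43 and 7.96 ± 0.36 (SD, n = 3), a difference of 0.71 (SE 0.31, 95% interval 0.03 to 1.38), or 1.63-fold. Its limma p was 0.0408 before and 0.9998 after adjustment (0.575 with the replicate number as a block). The CD8 arrays of Nr4a1 read 6.61, 7.92 and 6.80 in control culture and 7.44, 8.07 and 7.75 with linoleic acid. Here the second control array stood apart from the other two, at the level of the linoleic acid arrays. The difference was 0.64 (SE 0.31, 95% interval -0.03 to 1.32), with a limma adjusted p of 0.757, or 0.286 with the block.

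Nr4a3 (probe set 17413945), a close relative that is induced with Nr4a1 by strong receptor signals, read 5.67, 6.28 and 6.05 in CD4 control cells and 6.07, 6.55 and 6.25 with linoleic acid. Its values in CD8 T cells were 5.61, 5.99 and 5.98 without and 6.03, 5.88 and 5.79 with the fatty acid. The differences were 0.29 (95% interval -0.08 to 0.67) and 0.04 (-0.33 to 0.41). All 3 same-numbered pairs were higher in CD4 T cells and 1 of 3 in CD8 T cells. Nr4a2 (probe set 17385374), the third member of the family, ranged from 4.12 to 4.85 over the 12 arrays, with linoleic acid differences of 0.28 (SE 0.16) in CD4 and 0.22 (SE 0.16) in CD8 T cells.

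Egr2 (probe set 17233993), one of the 2 EGR factors tied to T cell anergy, was the only member whose linoleic acid and control arrays did not overlap. It read 5.52, 5.47 and 5.41 in CD4 control cells and 5.67, 5.91 and 5.92 with linoleic acid. The means were 5.47 ± 0.06 and 5.83 ± 0.14 (SD, n = 3), and the difference was 0.37 (SE 0.15, 95% interval 0.04 to 0.70). The limma p was 0.0320 before and 0.9998 after adjustment, and the two-sided exact permutation p was 0.1, the smallest that 3 against 3 arrays can give. Arrays failed to overlap for 7.44% of all genes in this comparison, so 1 of 10 members is near that background. On the CD8 arrays Egr2 read 5.55, 6.05 and 5.52 without and 5.83, 5.79 and 5.49 with linoleic acid, which left no difference in the means (-0.0011, 95% interval -0.33 to 0.33). No member's arrays were apart in the CD8 comparison (9.01% of all genes).

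Egr1 (probe set 17349514), the founding member of its family and a target of the ERK pathway, read 6.19, 5.83 and 5.56 in CD4 control cells and 6.26, 6.38 and 5.94 with linoleic acid. In CD8 T cells it read 6.18, 6.42 and 5.46 without and 6.32, 6.31 and 5.59 with the fatty acid. The CD4 difference was 0.34 (SE 0.26) with all 3 pairs higher, and the CD8 difference was 0.05 (SE 0.26) with 2 of 3 higher. Egr3 (probe set 17301718), which acts with Egr2, read 5.57, 6.01 and 5.98 against 5.08, 6.31 and 6.41 with linoleic acid in CD4 T cells. Its first pair moved down and the other two up, for a difference of 0.08 (95% interval -0.57 to 0.73). Egr3 on the CD8 arrays read 5.39, 6.17 and 5.84 without and 5.77, 6.18 and 6.34 with the fatty acid, a difference of 0.30 (SE 0.30).

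Fosb (probe set 17487211), a FOS family partner of the JUN proteins, was the one member lower with linoleic acid in all 3 pairs of both cell types. In CD8 T cells it read 7.09, 6.34 and 5.87 in control culture and 6.09, 5.88 and 5.26 with linoleic acid. The groups overlapped, and the 3 control arrays were widely spread. Their means were 6.43 ± 0.62 and 5.74 ± 0.43 (SD, n = 3), a difference of -0.69 (SE 0.29, 95% interval -1.31 to -0.07), or 1.61-fold lower. The limma p was 0.0315 before and 0.757 after adjustment, and the adjusted p was 0.09999 with the replicate block. In CD4 T cells Fosb read 6.35, 5.70 and 5.75 against 5.89, 5.64 and 5.40, a difference of -0.29 (95% interval -0.91 to 0.33).

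Fos (probe set 17277387), the prototype of its family, read 6.54, 6.04 and 5.16 in CD4 control cells and 6.04, 5.88 and 5.93 with linoleic acid. In CD8 T cells it read 6.74, 5.76 and 6.29 without and 6.04, 6.19 and 5.79 with the fatty acid. The control arrays were the more scattered in both cell types, with an SD of 0.70 against 0.08 in CD4 and 0.49 against 0.20 in CD8 T cells. The mean differences were 0.04 (SE 0.29) and -0.26 (SE 0.29). Jun (probe set 17427312) and Junb (probe set 17511259), the partners that bind DNA with FOS proteins, differed by 0.23 (SE 0.26) and 0.08 (SE 0.20) in CD4 T cells and by -0.07 (SE 0.26) and -0.17 (SE 0.20) in CD8 T cells. Junb in CD8 linoleic acid cells read 8.52, 8.34 and 7.58, and the third array was the lowest Junb value of the 12.

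Over the 10 genes, 9 of the linoleic acid differences were above 0 in CD4 T cells, against 48.6% over all genes tested. The medians were 0.26 and -0.0047. In CD8 T cells 5 of 10 were above 0, against 36.9% of all genes, with a median of 0.02 against -0.06. In all, 2 members had an unadjusted limma p under 0.05 in CD4 T cells (Nr4a1 and Egr2; 2.6% of all genes) and 1 in CD8 T cells (Fosb; 5.08% of all genes). With the replicate number as a block 0 members and 0.00698% of all genes passed adjustment in CD4 T cells, and 0 members and again 0.00698% in CD8 T cells. The question the submitters put, whether the cell types respond differently, was tested as the CD4 effect minus the CD8 effect. It was above 0 for 9 of the 10 genes, all but Egr3, and for 57.1% of all genes (medians 0.27 and 0.04). Its largest values were 0.40 for Fosb (SE 0.41), which lay further below control in CD8 T cells, and 0.37 for Egr2 (SE 0.22). No member reached an unadjusted limma p under 0.05 (2.35% of all genes did), the adjusted p lay between 0.953 and 0.990, and 0% of genes passed with the block. The 95% intervals of these differences had half-widths of 0.47 to 0.95 log2 units, so only large differences between the cell types could have been seen.

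Because Nr4a1 and Fosb kept their direction in both cell types, the mean of the CD4 and CD8 effects was fitted as well, a comparison added after these values had been seen. Nr4a1 was higher in 6 of 6 same-numbered pairs, by 0.15 to 0.999, with a mean effect of 0.68, or 1.60-fold. Fosb was lower in 6 of 6 pairs, by -0.07 to -1.01, with a mean effect of -0.49, or 1.40-fold lower. Over all genes 4.71% had 6 differences of one sign, against 2 of the 10 members. The 6 pairs may not be independent, since CD4 and CD8 cells of one number could come from one culture.

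The call on this mean effect depended on how the replicate numbers entered the limma fit. Without a block the adjusted p was 0.925 for both genes, and 0% of all genes passed. With the number as 1 block over all arrays the 95% interval was 0.38 to 0.97 for Nr4a1 (adjusted p 0.0589) and -0.71 to -0.27 for Fosb (adjusted p 0.0702), 0 members passed and 0.182% of all genes did. With a separate block for each number within each cell type the limma adjusted p was 0.0158 for Nr4a1 and 0.0708 for Fosb, and 1 of 10 members and 0.314% of all genes passed. Leaving out 1 array in turn under the first block gave limma adjusted p-values of 0.0109 to 0.205 for Nr4a1 and 0.0386 to 0.244 for Fosb. Nr4a1 was below 0.05 without CD8 control array 2 (0.0109) and without CD4 control array 3 (0.0356), and Fosb without CD4 control array 2 (0.0386). The first 2 held the highest Nr4a1 value of their group (7.92 and 7.69), and the last held the lowest Fosb value of its group (5.70). Each pass thus followed the removal of a value that narrowed the difference. The share of all genes passing in these fits is not given here. The other 8 genes had blocked limma adjusted p-values of 0.440 to 0.902.

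**Figure D2:**
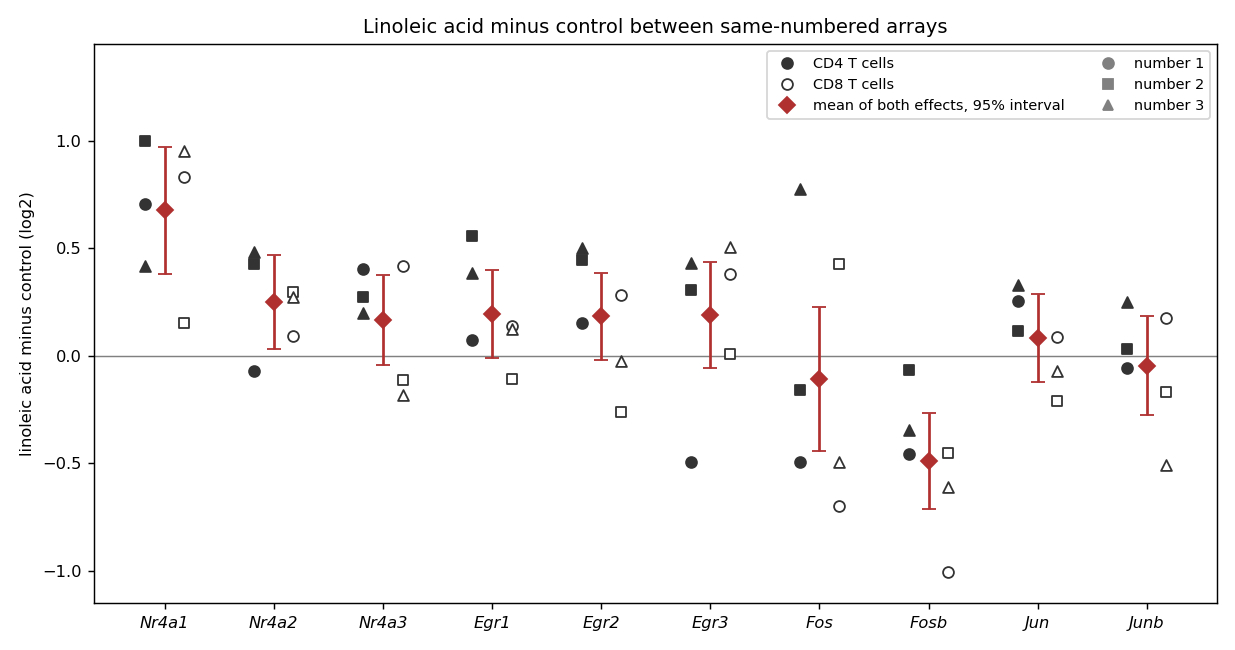
Linoleic acid minus control (log2) between same-numbered arrays for the 10 genes, filled for CD4 and open for CD8 T cells, with marker shape giving the number; diamonds and bars give the mean of both effects and its 95% interval from limma with the replicate block. All 6 points lie above 0 for Nr4a1 and below 0 for Fosb, whereas Fos runs from -0.70 to 0.77.

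In control culture no difference between CD8 and CD4 T cells could be detected for the early response genes at this precision. The CD8 minus CD4 differences ran from -0.17 (Junb) to 0.50 (Fosb), with 5 of 10 above 0 and a median of 0.05 against 0.0014 over all genes. Fosb read 7.09, 6.34 and 5.87 in CD8 and 6.35, 5.70 and 5.75 in CD4 control cells, higher in 3 of 3 same-numbered pairs with overlapping groups (0.50, SE 0.29, limma adjusted p 0.689). None of the 10 passed, against 1.95% of all genes, none had an unadjusted p under 0.05 (9.37%), and no member's arrays were apart (16.1%).

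After linoleic acid culture the largest CD8 minus CD4 differences were all negative. Jun read 9.88, 9.41 and 8.83 in CD8 and 10.08, 9.74 and 9.66 in CD4 T cells, lower in all 3 pairs (-0.45, SE 0.26, limma adjusted p 0.553, or 0.0666 with the replicate block). Junb read 8.52, 8.34 and 7.58 in CD8 and 8.58, 8.52 and 8.57 in CD4 T cells (-0.41, SE 0.20, limma adjusted p 0.453). Both means leaned most on the third pair. Pairs 1, 2 and 3 differed by -0.20, -0.32 and -0.83 for Jun and by -0.06, -0.18 and -0.99 for Junb. For Junb and Nr4a3 the groups did not overlap, as for 15.3% of all genes. Nr4a3 had the smallest p of the 10 (-0.39, SE 0.17, limma p 0.0413, adjusted p 0.393), and it was the 1 member with an unadjusted p under 0.05 (11.8% of all genes). None of the 10 passed adjustment, where 2.03% of all genes did, nor with the block, where 5.57% did. When arrays were weighted by an estimate of their quality, which stopped before it converged, Nr4a3 passed at -0.54 (limma adjusted p 0.0105), and with weights estimated gene by gene it was at -0.50 (adjusted p 0.0870). The first weights were 0.45, 4.91 and 0.29 for the CD8 and 0.74, 3.22 and 0.80 for the CD4 linoleic acid arrays. That pass leaned mostly on the arrays numbered 2, where Nr4a3 differed by -0.68, against -0.04 and -0.46 for numbers 1 and 3. The share of all genes passing under these weights is not given here. The CD4 linoleic acid arrays stand in this comparison and in that of linoleic acid in CD4 T cells, so these comparisons are not independent. Beside both CD8 against CD4 comparisons, the B cell marker mean was lower in CD8 T cells in 6 of 6 same-numbered pairs, by -0.25 to -0.50, and its part in them was not tested. The half-widths of the 95% intervals were 0.33 to 0.67 in both CD8 against CD4 comparisons.

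**Figure D3:**
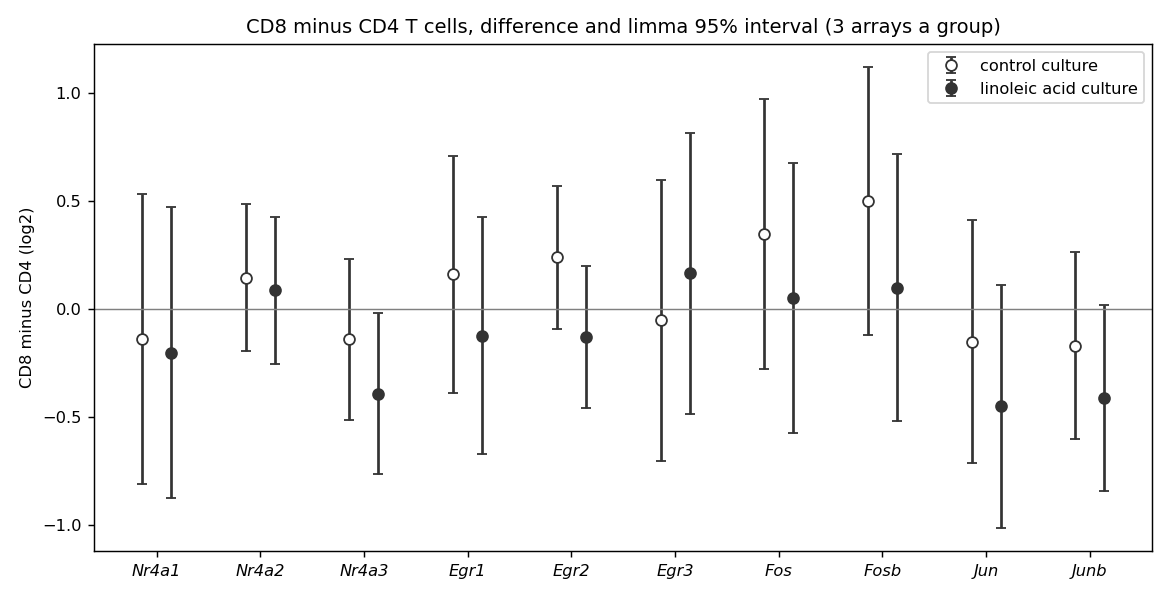
CD8 minus CD4 difference in log2 intensity for the 10 genes in control (open) and linoleic acid culture (filled), as points with limma 95% intervals from 3 arrays a group. Intervals cross 0 for every gene except Nr4a3 in linoleic acid culture, which runs from -0.76 to -0.02.

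The order of the 4 group means differed between the genes. CD4 linoleic acid cells had the highest mean for 6 genes (Nr4a1, Nr4a3, Egr1, Egr2, Jun and Junb), CD8 linoleic acid cells for Nr4a2 and Egr3, and CD8 control cells for Fos and Fosb. Neighbours in an order mostly lay closer than the SD within groups. The exceptions were 1 gap each, for Nr4a1 between CD8 linoleic acid and CD4 control cells (0.50 against an SD of 0.48), for Nr4a3 between CD4 linoleic acid and CD4 control cells (0.29 against 0.23), for Egr2 between CD8 linoleic acid and CD4 control cells (0.24 against 0.19) and for Fosb between CD8 and CD4 control cells (0.50 against 0.44). For Nr4a2, Egr1, Egr3, Fos, Jun and Junb no neighbours in the order differed by more than that SD.

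Several of the genes also differed by replicate number. Egr3 read 5.08 to 5.77 on the 4 arrays numbered 1 and 5.84 to 6.41 on the 8 others, and Jun read 9.79 to 10.08 and 8.83 to 9.74. These ranges do not overlap, which held for 5.59% of all genes. The arrays numbered 1 were also higher on average for Fosb (0.63), Fos (0.46), Egr1 (0.30) and Junb (0.21), and lower for Nr4a1 (-0.62), Nr4a3 (-0.25) and Nr4a2 (-0.16), with overlapping ranges. For Egr1 and Junb it was number 3 that stood low. Their means for numbers 1, 2 and 3 were 6.24, 6.24 and 5.64 (Egr1) and 8.52, 8.47 and 8.14 (Junb). The B cell and myeloid marker means given above set the arrays numbered 1 apart from the others, as Egr3 and Jun did. So, barely, did the mean of the 1409 receptor genes of the gauge, at 2.99 to 3.15 on the arrays numbered 1 and 3.15 to 3.46 on the others. The mean of 9 T cell markers ran the other way, with averages of 9.65, 9.48 and 9.36 on the arrays numbered 1, 2 and 3. The part of these levels in the differences between numbers was not tested. In bulk samples fewer cells of a type and less RNA per cell cannot be told apart.

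Over the culture groups the B cell mean ran from 6.22 to 7.43 in CD4 control, 6.25 to 7.63 in CD4 linoleic acid, 5.80 to 7.09 in CD8 control and 5.83 to 7.12 in CD8 linoleic acid cells. For the myeloid mean the ranges were 5.13 to 5.64, 5.12 to 5.79, 5.04 to 5.48 and 5.06 to 5.84. These ranges overlap, but within same-numbered pairs the B cell mean was higher with linoleic acid in 6 of 6, by 0.02 to 0.28, as Nr4a1 was. The myeloid mean was higher in 5 of 6 pairs (-0.0060 to 0.36), and so was the receptor gene mean (-0.02 to 0.25). Measured B cell markers were more often higher than lower with linoleic acid, 11 of 13 in CD4 (median 0.18) and 10 of 13 in CD8 T cells (median 0.10), with 0 past the threshold. Of 11 tested myeloid markers 9 and 11 were higher, with medians of 0.11 and 0.20 and again 0 past the threshold. Markers of the sorted cells ran the other way in CD8 T cells. There 9 of 9 T cell markers (median -0.20) and 3 of 3 CD8 markers (median -0.16) were lower with linoleic acid, 0 past the threshold. Over all genes tested, 48.6% were higher with linoleic acid in CD4 T cells (median -0.0047) and 36.9% in CD8 T cells (median -0.06). The part of the marker levels in the Nr4a1 and Fosb differences was not tested.

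**Figure D4:**
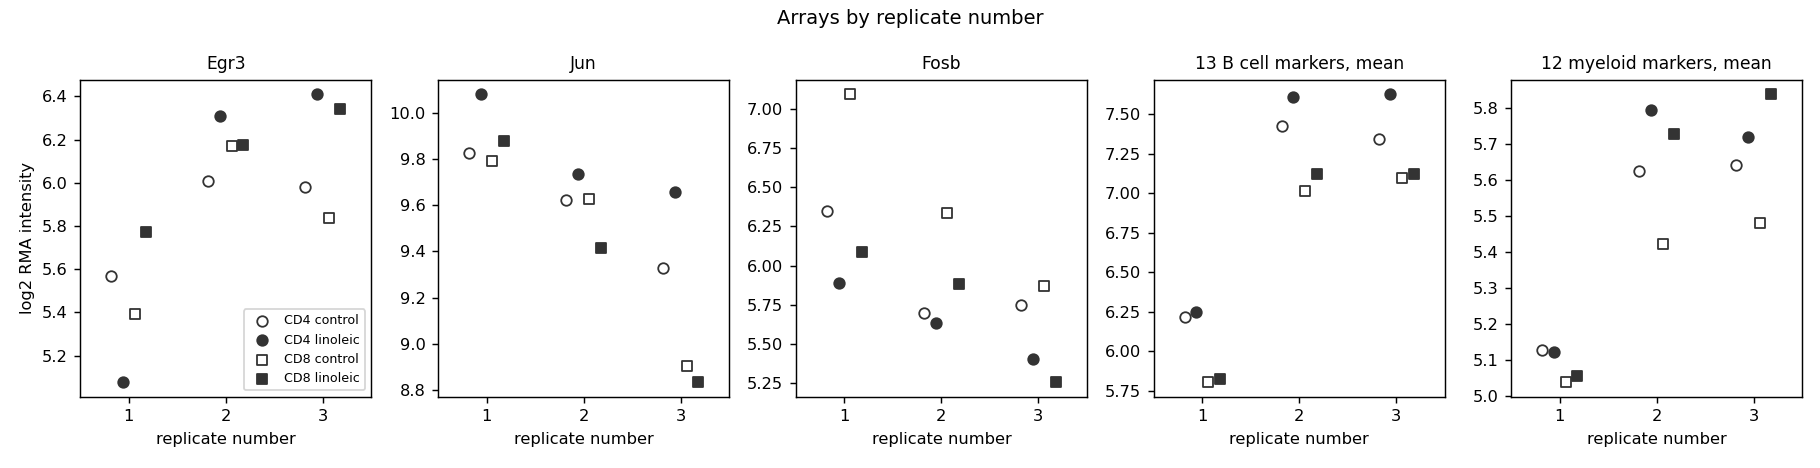
Log2 RMA intensity of Egr3, Jun and Fosb and the means of 13 B cell and 12 myeloid markers on the 12 arrays, by replicate number (a name, not an order), with shape giving the cell type and fill the culture. On the arrays numbered 1 Egr3 and both marker means lie below, and Jun above, all other arrays.

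Within the set, the genes did not vary as 1 block over the 12 arrays. The highest Pearson correlations were between Jun and Junb (0.867), Egr1 and Jun (0.773), Egr1 and Egr2 (0.712) and Nr4a1 and Egr3 (0.672). Fos and Fosb ran against Nr4a1 (-0.648 and -0.615). These values describe 12 arrays that share 4 groups and 3 replicate numbers.

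Among the other genes tested, the 2 most like each member over the 12 arrays were picked by Pearson correlation, and a high value follows from picking among so many. For Nr4a1 they were Klf10 (0.881), itself an early response gene, and A430108G06Rik (0.863). Egr3 was followed most closely by Tyrobp (0.929), a signalling adaptor of myeloid and natural killer cells, and by Zfp600 (0.898). Jun went with Phf1 (0.946) and Lats2 (0.931), Junb with Ncoa1 (0.961) and Lrp10 (0.958), and Fosb with Anapc11 (0.942) and Fam122a (0.929). Fos went with Zfp3 (0.925) and H2ax (0.888), Egr2 with Vps37b (0.803) and Errfi1 (0.801), and Nr4a3 with Ticrr (0.909) and Cacna1h (0.868). Egr1 was matched by Lbx2 (0.970) and 1700120K04Rik (0.893), and Nr4a2 by Zc2hc1a (0.891) and Hoxb6 (0.888). Means below the gauge were found for both matches of Egr1, Nr4a2 and Nr4a3 and for Zfp600. The mean of the 10 centred genes was followed by Lbx2 (0.877), Cbll1 (0.869), Zfp318 (0.865), Spred1 (0.857) and Skiv2l (0.847).

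The wider pathway was read from lists. Of 38 other early response genes, 0 passed for linoleic acid in either cell type, with 33 above 0 in CD4 (median 0.15 against -0.0047 over all genes) and 22 in CD8 T cells (median 0.03 against -0.06). Dusp5, a phosphatase that holds ERK inactive in the nucleus, had the smallest p of the list in both, at 0.52 (SE 0.21, limma adjusted p 0.9998) in CD4 and 0.56 (SE 0.21, limma adjusted p 0.757) in CD8 T cells. It was higher in 6 of 6 pairs, as Nr4a1 was, with a mean effect of 0.54 (limma adjusted p 0.150 with the replicate block). Of 25 upstream kinases, calcineurin subunits and transcription factors, 17 were above 0 in CD4 T cells (median 0.09) and 23 below 0 in CD8 T cells (median -0.22), with 0 past the threshold. In CD8 T cells the mean of these 25 genes read 7.94, 7.95 and 7.78 in control culture and 7.89, 7.78 and 7.43 with linoleic acid. The last same-numbered pair fell most (-0.35). Its linoleic acid array also had the lowest array weight (0.29) and the lowest T cell marker mean (9.12) of all arrays. The part of this array in the CD8 median was not tested. Over all genes tested, 48.6% of the differences were above 0 in CD4 T cells and 36.9% in CD8 T cells.

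Between CD8 and CD4 T cells the early response list was mixed. In control culture CD8 T cells had more Myc, which drives growth and division (0.74, limma adjusted p 0.0177), and more Ier3, a regulator of survival (0.68, adjusted p 0.0199). Rgs1, a brake on chemokine receptor signalling, was lower (-1.02, limma adjusted p 0.0355), while the median of the 38 was -0.16. In linoleic acid culture 1 passed, Ier3 (0.65, limma adjusted p 0.0271), and 33 of 38 were below 0, with a median of -0.30 against -0.02 over all genes. With the replicate block 1 was higher and 7 were lower there, where 5.57% of all genes passed. Upstream, Crem, a CRE-binding factor of the cyclic AMP pathway, was the 1 gene of 25 past the threshold without a block, lower in CD8 T cells in control (-0.80, limma adjusted p 0.00095) and in linoleic acid culture (-0.71, limma adjusted p 0.0028). With the replicate block 3 of the 25 were lower in linoleic acid culture: Crem, the kinase gene Prkd2 (-0.54, limma adjusted p 0.0183 with the block and 0.393 without) and Mef2c, a calcium-responsive factor (-0.57, limma adjusted p 0.0043 with the block and 0.772 without). Prkd2 is among the genes chosen by the rule for this list, and Mef2c was added after its value was seen. With the same block 6 of 13 B cell markers were also lower in CD8 T cells in linoleic acid culture. The part of B cell RNA in the Mef2c difference was not tested.

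T cell genes tied to EGR, NR4A or NFAT and AP-1 differed between CD8 and CD4 T cells, and most that passed were lower in CD8. Of 25 tested, 11 were lower and 1 was higher in the CD8 control cells (median -0.56), where 1.95% of all genes passed with a median of 0.0014. In linoleic acid culture 12 were lower and 1 was higher (median -0.67), where 2.03% of all genes passed with a median of -0.02. Crtam, an adhesion receptor of activated CD8 T cells, was the higher one in both (1.62 and 1.89; limma adjusted p 6.8e-05 and 1.3e-05). The lower ones in control culture were led by Foxp3 (-3.39), the regulatory T cell factor, Cd40lg (-3.74), the helper ligand, Il2ra (-2.22) and Tnfrsf4 (-2.03), with a largest limma adjusted p of 2.95e-06 among them. Foxp3, Il2ra and Tnfrsf4 are known as genes of CD4 regulatory T cells, and Cd40lg is also one of the CD4 markers used here. None of the list passed for linoleic acid in either cell type.

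The remaining AP-1 and EGR genes showed no passing difference. Of 8 tested AP-1 family genes outside the members, 0 passed in the 5 comparisons. Batf, the partner of JUN at composite sites with IRF4, was at -0.37 in control (limma adjusted p 0.219) and -0.45 in linoleic acid culture (limma adjusted p 0.0939, or 0.0402 with the replicate block) in CD8 against CD4 T cells. Of the 4 EGR partners Egr4, Nab1, Nab2 and Wt1, 0 passed. Of 7 tested genes of heat shock and handling stress 0 passed. The smallest p among them was that of the chaperonin gene Hspe1 for linoleic acid in CD4 T cells (-0.41, SE 0.10, limma p 0.00085, adjusted p 0.9998).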

How the data were processed

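Total RNA of sorted mouse T cells was hybridised to 12 Affymetrix MoGene-2_0-st arrays, 3 for each of 4 groups taken from the titles. The deposited values are log2 intensities that the authors made with RMA (background correction, quantile normalization and probe set summary), per the submitters' processing notes; the software, its version, the summary level and the build used were not given in the sources used here. The values were used without further normalization. Precision is limited by having 3 arrays a group.

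Of 41345 probe sets 23521 had 1 gene symbol, 1814 several and 16010 none; only the first were named, and 23328 matched a RefSeq gene. Where a gene had several probe sets, the one with the highest mean stood for it. Genes with a mean under the 40th percentile of all probe sets (log2 4.28) were left out. Contrasts of group means were fitted with limma 3.58.1 in R 4.3.3 (lmFit and eBayes, two-sided, 8 residual and 5.67 prior degrees of freedom) and adjusted over 14323 genes by the Benjamini-Hochberg method at 0.05. The 10 genes and the lists were chosen with earlier results of these data known. All 10 genes are named, and from each list up to 4 genes with the smallest p and those past the threshold where these were 5 or fewer; the genes most like each member are those with the highest Pearson r. The fit without a block was tested on simulated data with independent noise and no effect of replicate number. The fits with a block were not tested in this way.

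The labels share replicate numbers 1 to 3 across groups without saying what a number marks. Deviations from the group means correlated between same-numbered linoleic acid and control arrays by 0.61, 0.19 and 0.32 in CD4 and 0.43, 0.19 and 0.42 in CD8 T cells, and between CD8 and CD4 arrays in linoleic acid culture by 0.58, 0.26 and 0.52. These numbers were taken as pairing the arrays, on the evidence of the data, since no label says so. That evidence was uneven. CD4 linoleic acid array 3 correlated more with a CD4 control array of another number. So did CD8 control array 2.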

Additional observations from a re-analysis of the deposited data

How the results depend on the processing

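Intervals of 0.33 to 0.67 log2 units to either side limit what 3 arrays a group show, and Nr4a2 lay near background. The alternatives were no filter or one at the 60th percentile, quantile normalization, a shift of array medians, the mean of a gene's probe sets, only the compared arrays, an intensity trend with a robust prior, array weights, the replicate block and leaving out each array; the average effect had only the block choices and the arrays left out. The gene-by-gene weights and the average effect were added after seeing the data. The median shift moved the median of all genes for linoleic acid in CD8 T cells from -0.057 to -0.112.

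The count of members past the threshold stayed at 0 under every alternative for linoleic acid in CD4 and in CD8 T cells, for their difference and for CD8 against CD4 T cells in control culture. In linoleic acid culture it became 1 (Nr4a3) with array weights, which leaned mostly on the arrays numbered 2. For the average effect it was 1 (Nr4a1) with the block within cell type, and 0 to 1 when 1 array was left out. Between same-numbered CD8 and CD4 control arrays the correlations were 0.54, -0.01 and 0.42, so pairing was not seen for number 2. The replicate block there called 630 genes (4.4%) against 280 and no member (Fosb adjusted p 0.0722, limma). Among the lists it called 2 early response genes higher and 4 lower, against 2 and 1, and upstream Hdac7 higher (0.45, limma adjusted p 0.0458) beside Crem lower. In linoleic acid culture the block called 798 genes against 291, and it changed no call on a member in the 5 comparisons.

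Some differences changed sign, and the cause was not tested. For linoleic acid in CD8 T cells these were Egr2 (0.0094) and Jun (0.0046) with quantile normalization, Nr4a3 (-0.014) and Egr1 (-0.0021) with the median shift, Nr4a3 (-0.021) and Fos (0.037) with array weights, and Nr4a3 (-0.0040) with gene-by-gene weights. For the difference between effects they were Nr4a1 (-0.034) with quantile normalization and Egr3 (0.010) with array weights. For CD8 against CD4 control cells they were Nr4a1 (0.022) and Egr3 (0.029) with array weights, and Egr3 (0.0015) with gene-by-gene weights. The values in brackets lie near 0, but in the main fit not all did. There Fos stood at -0.26 for linoleic acid in CD8 T cells and Egr3 at -0.22 for the difference between effects. Nr4a1 stood at -0.14 for CD8 against CD4 control cells.

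Leaving out 1 array gave these ranges where a sign changed. For linoleic acid in CD4 T cells they were Egr3 -0.16 to 0.51, Fos -0.34 to 0.35 and Junb -0.0050 to 0.15. In CD8 T cells they were Nr4a3 -0.083 to 0.11, Egr1 -0.23 to 0.30, Egr2 -0.10 to 0.17, Jun -0.34 to 0.20 and Junb -0.35 to 0.12. For the difference between effects they were Nr4a1 -0.34 to 0.31, Nr4a2 -0.10 to 0.17, Egr3 -0.46 to 0.21, Fos -0.082 to 0.61 and Junb -0.042 to 0.43. For CD8 against CD4 control cells they were Nr4a1 -0.54 to 0.11, Egr1 -0.038 to 0.44, Egr3 -0.24 to 0.15, Fos -0.031 to 0.66 and Jun -0.33 to 0.12. In linoleic acid culture they were Nr4a2 -0.010 to 0.25, Egr1 -0.25 to 0.12, Egr3 -0.26 to 0.40, Fos -0.040 to 0.16 and Fosb -0.073 to 0.34. For the average effect the range was -0.13 to 0.065 for Junb.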
